A study of Gallus gallus with 10 samples.

Results

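The 7 genes described here, ZMYM3, NELFCD, SENP8, AKAP9, RABEPK, CDH4 and LRRN3, encode no egg white protein, and each had a lower mean level in the magnum of hens at 50 weeks of age than at 35 weeks. They were chosen by name from the deposited count table, and all 7 met the condition of a lower mean at 50 weeks. Of the 29558 genes in the table, 15792 had a count in any library. Of these, 7975 met the same condition when each library was scaled to its total. The names, and not a cut-off on the size of the fall, set the group. Some genes outside it fell by as much as any of the 7 other than ZMYM3. Because the age difference was also a condition of the choice, their levels at the 2 ages are given as a description and not as a test. The condition of a lower mean did not use the spread between hens of 1 age or whether the genes varied together among those hens. Nor did it use how genes that work with the 7 behaved. How the names were first picked is not given, and a pick by an age test would favour genes with little spread within an age.

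The magnum is the stretch of the hen's oviduct whose gland cells secrete egg white around the yolk. RNA was sequenced from whole magnum tissue of Gallus gallus broiler breeders, the parent stock of meat chickens, with 5 hens at 35 weeks (peak lay, named Young by the labels) and 5 at 50 weeks (declining lay, named Aged). Every bird had an egg in the magnum, the labels list no treatment other than age, and each library carries its own bird number. The titles also name the shell gland, while the tissue and source labels name the magnum.

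The group spans several levels of cell biology. In the nucleus, NELFCD is a subunit of the negative elongation factor, which holds RNA polymerase II shortly after the start of a gene until it is released into elongation, and ZMYM3 is a MYM-type zinc finger protein found with histone deacetylase and demethylase complexes. SENP8 is the protease that matures and removes NEDD8, the ubiquitin-like protein that switches on cullin ubiquitin ligases. AKAP9 is a large scaffold of the centrosome and Golgi that anchors protein kinase A, and RABEPK is a kelch-repeat protein that binds the GTPase Rab9, which returns receptors from late endosomes to the trans-Golgi network. CDH4 (R-cadherin) is a calcium-dependent adhesion protein of the cell surface, and LRRN3 is a leucine-rich repeat membrane protein best known from neurons. These roles are known mainly from mammals.

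Library totals were low, between 188271 and 258195 counts (median 220938), so that 3 counts, the limit a count of 0 allows, correspond to 11.6 to 15.9 CPM (counts scaled to a common library size), for counting error only. Of the 15792 genes with any count, 1773 had enough to be tested, and all 7 genes were among them. A principal component analysis (500 genes of highest variance) put 3 libraries, the 35-week replicates 1 and 2 and the 50-week replicate 4, far from the remaining 7 on its leading axis, which held 28.8% of the variance; results that rest on these 3 are given with and without them. Egg white genes summed to 43300 to 57500 CPM at 35 weeks and 29730 to 43250 CPM at 50 weeks, with all 19 of those in the table counted. Shell gland markers summed to at most 58.2 CPM, and 4 of the 8 in the table, CALB1, SCNN1G, SLC26A9 and SPP1, were at 0 in every library. In whole tissue, fewer cells of a type and less RNA per cell cannot be told apart.

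ZMYM3 had the largest difference of the 7 and, at 35 weeks, the largest spread. At 35 weeks its level in replicates 1 to 5 was 113, 192, 899, 213 and 1228 CPM, and at 50 weeks it was 24.5, 18.0, 54.8, 42.8 and 13.0 CPM. The ages did not overlap, and replicates 3 and 5 at 35 weeks lay far above the other hens of their age. The means were 529 ± 503 CPM (SD, n = 5) and 30.6 ± 17.6 CPM, so the level at 50 weeks was 5.78% of that at 35 weeks, and the fitted log2 fold change was −4.06 (SE 0.79). At 50 weeks these levels rest on 3 to 13 counts per library. ZMYM3 lies on chromosome 4 at 2238407 to 2269728 (GRCg7b) and overlaps NONO, which had 2 to 8 counts per library, by 1112 bp. LOC428702, for which no count was matched, lies 428 bp away.

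NELFCD was steadier. Its 35-week hens had 2226, 1876, 2297, 2253 and 1554 CPM and its 50-week hens 1484, 1532, 876, 1186 and 1347 CPM. The ages did not overlap, but the lowest hen at 35 weeks (replicate 5, 1554 CPM) lay just above the highest at 50 weeks (replicate 2, 1532 CPM). The means were 2041 ± 320 and 1285 ± 265 CPM (SD, n = 5 each), a log2 fold change of −0.67 (SE 0.17). No annotated gene overlapped NELFCD (chromosome 20, 11243726 to 11253145) or lay within 1 kb of it.

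SENP8 had the tightest values. Replicates 1 to 5 had 1099, 1075, 883, 914 and 924 CPM at 35 weeks and 725, 678, 742, 490.0 and 548 CPM at 50 weeks. Every 35-week hen was above every 50-week hen, with a clear gap between 883 and 742 CPM. The means were 979 ± 101 and 637 ± 112 CPM (SD, n = 5 each), and the log2 fold change was −0.62 (SE 0.15), the smallest of the 7. The 3 libraries that stood apart hold the 2 highest hens at 35 weeks and the lowest at 50 weeks. Without these 3 libraries the log2 fold change of SENP8 was −0.42 (SE 0.15). Leaving out such hens fixes a smaller difference in advance. SENP8 (chromosome 10, 1590072 to 1597497) overlaps MYO9A by 3927 bp, and MYO9A had 0 to 3 counts per library.

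AKAP9 was spread widely at both ages. At 35 weeks the hens had 1448, 595, 883, 1436 and 1239 CPM, and at 50 weeks 828, 256, 468, 482 and 358 CPM. The ages overlapped through replicate 2 at 35 weeks, which lay below replicate 1 at 50 weeks. The means were 1120 ± 372 and 478 ± 216 CPM (SD, n = 5 each), a log2 fold change of −1.23 (SE 0.32). AKAP9 (chromosome 2, 22297638 to 22398187) shares 742 bp with CYP51A1. CYP51A1, an enzyme of sterol synthesis, had means of 187 ± 24.3 and 212 ± 64.2 CPM and a log2 fold change of 0.18 (SE 0.23).

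RABEPK was the most counted of the 7, taking 1.08% of a library's counts on average at 35 weeks and 0.651% at 50 weeks. In the same counts VPS13A had a mean of 15131 CPM at 35 weeks, and the translation elongation factor gene EEF1A1 279 CPM. Both were named after their values were seen. Whether a share of these counts stands for a share of magnum mRNA was not tested. The levels of RABEPK were 9541, 8136, 10050, 13030 and 13940 CPM at 35 weeks and 6780, 5053, 4917, 11090 and 4378 CPM at 50 weeks. Replicate 4 at 50 weeks lay above 3 of the 5 hens at 35 weeks, while the other 4 lay below all of them. The means were 10940 ± 2449 and 6444 ± 2749 CPM (SD, n = 5 each), a log2 fold change of −0.76 (SE 0.25). The 3 libraries that stood apart hold the 2 lowest hens at 35 weeks and the highest at 50 weeks. Without these 3 libraries the log2 fold change was −1.22 (SE 0.18, adjusted p = 0.00644 in edgeR's quasi-likelihood test), and without replicate 4 at 50 weeks alone it was −1.04 (adjusted p = 0.0217). Leaving out the lowest hens at 35 weeks or the highest at 50 weeks fixes a larger difference in advance. These p-values also test the contrast that chose the gene, so nothing is read from them. Over all 18 alternatives the adjusted p of RABEPK ran from 0.000549 to 0.57.

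RABEPK (chromosome 17, 10196521 to 10198828) has PPP6C 64 bp away on one side and HSPA5 933 bp away on the other. HSPA5, the main chaperone of the endoplasmic reticulum, had 39 to 80 counts per library against 1014 to 2852 for RABEPK. Its means were 286 ± 60.5 CPM for the younger hens and 247 ± 37.8 CPM for the older, with a log2 fold change of −0.21 (SE 0.19). Among hens of the same age the levels of RABEPK and HSPA5 had a Pearson r of 0.07 (exact permutation p = 0.839, n = 10 hens), and those of AKAP9 and CYP51A1 an r of −0.14 (exact permutation p = 0.75), with an adjusted p of 0.839 for both over these 2 pairs. No source used here gives the strand setting of the counter, so whether reads of a neighbour or of the opposite strand enter the count of ZMYM3, SENP8, AKAP9, RABEPK, CDH4 or LRRN3 was not tested.

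CDH4 shared its highest hen at 50 weeks, replicate 4, with RABEPK. At 35 weeks its highest hens, replicates 1 and 2, were the lowest for RABEPK. The levels of CDH4 were 253, 271, 197, 155 and 192 CPM at 35 weeks and 63.7, 49.4, 114, 183 and 73.4 CPM at 50 weeks. Replicate 4 at 50 weeks lay above the lowest hen at 35 weeks, and the other 4 lay below all of them. The means were 214 ± 47.7 and 96.6 ± 53.8 CPM (SD, n = 5 each), a log2 fold change of −1.13 (SE 0.32). The highest 2 hens at 35 weeks and the highest hen at 50 weeks were the 3 libraries that stood apart. Without them the log2 fold change was as large, at −1.25 (adjusted p = 0.0385 in edgeR's quasi-likelihood test), and without replicate 4 at 50 weeks alone it was −1.49 (adjusted p = 0.0222). Leaving out the highest hen at 50 weeks fixes a larger difference in advance, and nothing is read from p-values of the contrast that chose the gene. Over all 18 alternatives the adjusted p of CDH4 ran from 0.00899 to 0.457. CDH4 (chromosome 20, 7578551 to 7995803) holds the long noncoding RNA gene LOC107054870 within its bounds.

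The sums of fibroblast and of epithelial markers were also high in those 3 libraries. The 12 fibroblast and matrix genes in the table, of which FAP was at 0, summed to 457 to 902 CPM in the 3 libraries and 39.4 to 266 CPM in the other 7. By age, the sum was 41.8 to 549 CPM at 35 weeks and 39.4 to 902 CPM at 50 weeks. Most of the fibroblast sum in the 3 libraries was 1 gene, COL6A2, named after its values were seen. COL6A2 had 97, 124 and 226 counts in the 3 libraries and 1 to 38 counts in each of the other 7. The sum in the 3 libraries therefore does not stand for fibroblast genes as a whole. The 9 general epithelial genes, of which ESRP1 was at 0, summed to 264 to 310 CPM in the 3 libraries and 54.9 to 152 CPM in the other 7. By age, the epithelial sum was 106 to 291 CPM at 35 weeks and 54.9 to 310 CPM at 50 weeks. Only 1 of these 9 genes had enough counts to be tested. How far the epithelial sum reflects single genes was not tested. Within ages, CDH4 had a Pearson r of 0.84 with the epithelial sum (exact permutation p = 0.00847, rho 0.71 with p = 0.0442) and of 0.68 with the fibroblast sum (exact permutation p = 0.0385, rho 0.52 with p = 0.15). Over all 84 relations between the 7 genes and 12 marker lists, the adjusted p-values were 0.245 and 0.462. Leaving out the 2 hens farthest from the median of the marker sum gave r of 0.53 and 0.38, and leaving out the 3 libraries gave 0.47 and −0.17, so the relation with the fibroblast sum rests on those libraries.

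LRRN3 had the lowest counts after ZMYM3 at 50 weeks. Its levels were 109, 153, 122, 116 and 42.7 CPM at 35 weeks and 39.2, 27.0, 54.8, 15.6 and 30.2 CPM at 50 weeks, from 4 to 13 counts per library at the later age. Replicate 5 at 35 weeks lay below replicate 3 at 50 weeks, and the other 4 at 35 weeks lay above all hens at 50 weeks. The means were 109 ± 40.5 and 33.3 ± 14.7 CPM (SD, n = 5 each), a log2 fold change of −1.70 (SE 0.38). The 3 libraries that stood apart hold the highest LRRN3 at 35 weeks and the lowest at 50 weeks. Without these 3 libraries the log2 fold change was −1.29 (SE 0.41). Leaving out the highest hen at 35 weeks and the lowest at 50 weeks fixes a smaller difference in advance. LRRN3 (chromosome 1, 27628047 to 27665238) lies wholly within the bounds of IMMP2L, which had 0 counts in all 10 libraries. Of the nerve and glia markers, 12 were in the count table and 9 of these were at 0 in every library, among them the neuronal genes SNAP25 and SYT1, and the sum over all 12 ran from 0 to 8.52 CPM at 35 weeks and from 0 to 4.87 CPM at 50 weeks.

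**Figure D1:**
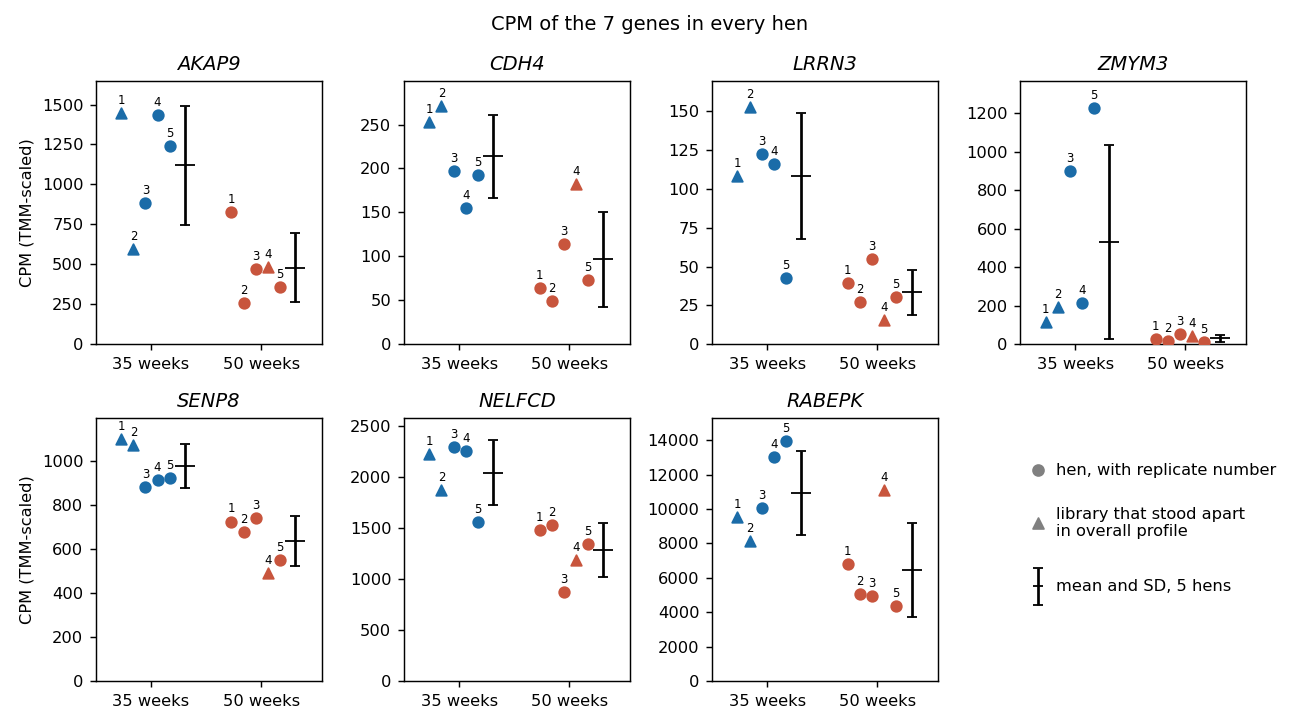
CPM (vertical axis, linear from 0) of each of the 7 genes in every hen at 35 weeks (blue) and 50 weeks (red), with replicate numbers, triangles for the 3 libraries that stood apart, and the mean and SD over 5 hens in black. The ages do not overlap for ZMYM3, SENP8 and NELFCD, while 1 hen at 50 weeks reaches into the 35-week range for AKAP9, CDH4, LRRN3 and RABEPK.

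The ages thus did not overlap for 3 of the 7 genes, ZMYM3, SENP8 and NELFCD. Among all 1773 tested genes, 1.13% were lower at 50 weeks without overlap. In the quasi-likelihood test of edgeR, adjusted over all tested genes by Benjamini and Hochberg, 0 of the 7 passed an adjusted p of 0.05, as against 0.0564% of all genes. Their adjusted p-values lay between 0.135 (ZMYM3 and LRRN3) and 0.279 (RABEPK). All 7 had an unadjusted p under 0.05, from 3.82e-04 to 0.0085, as did 6.03% of tested genes in the lower direction and 4.46% in the higher. Scaling by library totals alone turned that split, from 107 lower and 79 higher to 85 lower (4.79%) and 107 higher (6.03%), and moved the median log2 fold change of all genes from 0.01 to 0.05. The 7 genes were picked on this contrast, so nothing is read from these counts.

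Which of the 7 passed depended on the tool, and each passed in at least 1 of the 18 alternatives. The 7 genes were picked on this contrast, so the calls below describe how the settings differ. They are no support for an age difference, and the shares over all genes beside them give no measure of enrichment. DESeq2 called ZMYM3 (adjusted p = 4.37e-08), AKAP9 and SENP8 (0.0231 each) and NELFCD (0.0313), where it called 1.68% of the 776 genes with an adjusted p in the lower direction, and it gave CDH4 and LRRN3 no adjusted p. Limma with sample weights called AKAP9, CDH4 and RABEPK (adjusted p = 0.04 each), against 0.508% of all genes lower. With no filter on low counts edgeR called AKAP9, RABEPK, LRRN3 and CDH4, against 0.146% of 15792 genes lower, and with a filter of 1 CPM in at least 5 libraries it called these and NELFCD, against 0.316% of 7900. Without the 3 libraries that stood apart it called RABEPK, CDH4 and ZMYM3, against 1.53% of 1828 genes lower. Without replicate 4 at 50 weeks it called CDH4 and RABEPK, against 0.381% of 1836 genes lower. With the replicate number as a block it called AKAP9 (adjusted p = 0.0234), against 0.113% of all genes lower. Over the 18 alternatives the adjusted p of ZMYM3 reached 0.325, that of AKAP9 0.434 and those of SENP8 and NELFCD 0.376. In the authors' deposited table, 203 genes are listed, 99 of them higher at 35 weeks, with absolute log2 fold changes of at least 0.957, unadjusted p of at most 0.0543 and 6 adjusted p under 0.05. Of the 7 genes, 4 are in the authors' deposited table, all higher at 35 weeks. In the authors' deposited table ZMYM3 had a log2 fold change of 4.09 for 35 over 50 weeks (adjusted p = 9.47e-05), LRRN3 of 1.71 (0.0362), AKAP9 of 1.22 (0.0362) and CDH4 of 1.13 (0.119).

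**Figure D2:**
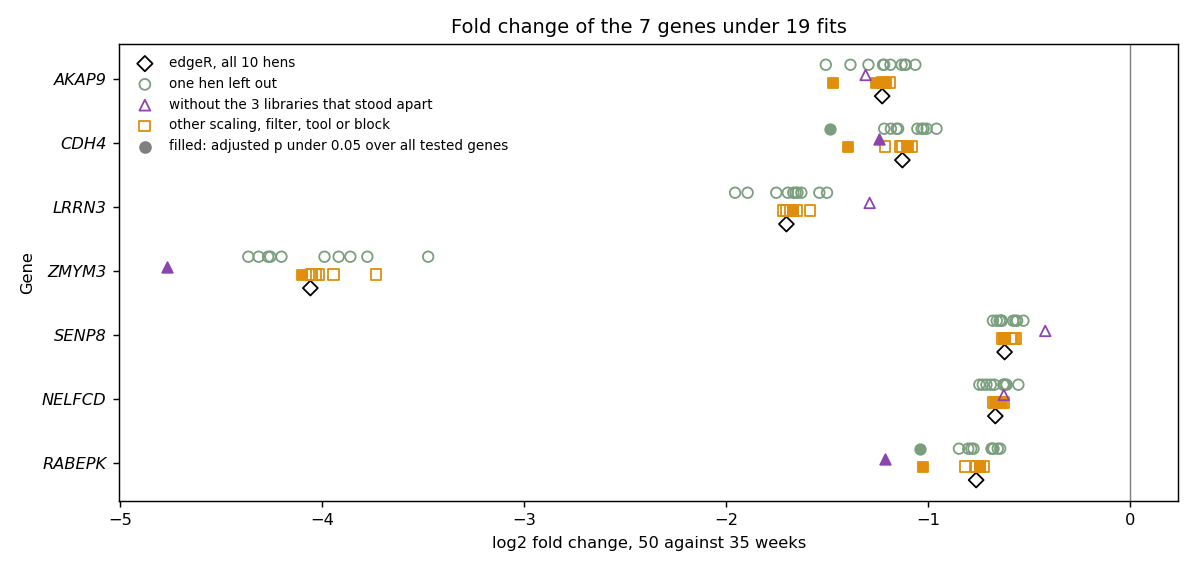
log2 fold change of 50 against 35 weeks (horizontal axis) of the 7 genes under 19 fits: edgeR on all 10 hens (diamonds), 1 hen left out (circles), without the 3 libraries that stood apart (triangles) and other scalings, filters, tools or the replicate block (squares), filled where the adjusted p over all tested genes was under 0.05. All values are below 0, and ZMYM3 ranges from −4.77 to −3.48.

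The spread between hens set the 7 genes apart from one another. As the SD of log2 CPM (a prior count of 2) among the 5 hens at 35 weeks, it ran from 0.14 for SENP8 to 1.46 for ZMYM3, with a median of 0.38 over all tested genes. Of all tested genes, 5.13% had a smaller SD at 35 weeks than SENP8 and 99.4% a smaller SD than ZMYM3. Counting error widens the SD of genes with few counts, and these shares were not adjusted for it. The median tested gene had a mean count of 30.9, against 203 for SENP8 and 102 for ZMYM3 at 35 weeks. At 50 weeks the SD ran from 0.26 for SENP8 to 0.68 for CDH4, with a median of 0.35 over all tested genes. On the CPM scale the coefficient of variation of ZMYM3 was 95.1% at 35 weeks, where counting error alone gives 9.88%, and 57.6% at 50 weeks, where counting error gives 37.3%. For LRRN3 at 50 weeks it was 44.0% against 36.3% from counting error, so little of its spread at 50 weeks can be told from counting error. For RABEPK, with the most counts, it was 22.4% and 42.7%, against counting errors of 2.12% and 2.58%.

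No difference in spread between the ages passed the test for any of the 7. The mean absolute deviation from the age median of log2 CPM was 1.10 at 35 weeks and 0.49 at 50 weeks for ZMYM3, a difference of −0.61 (exact two-sided permutation p = 0.317, adjusted p = 0.981 over 7 genes). For CDH4 it was 0.23 and 0.49 (difference 0.26, exact permutation p = 0.333, adjusted p = 0.981). Single hens moved both differences by over 1.5 times. That of ZMYM3 was −0.38 without replicate 3 at 35 weeks and −0.27 without replicate 5 at 35 weeks, and that of CDH4 was 0.08 without replicate 4 at 50 weeks. Other omissions widened them. The difference of ZMYM3 reached −0.89 without replicate 4 at 35 weeks (exact permutation, adjusted p = 0.111). That of CDH4 reached 0.38 without replicate 5 at 50 weeks (exact permutation, adjusted p = 0.444). Without the 3 libraries that stood apart the difference was −0.37 for ZMYM3 and 0.20 for CDH4. The other 5 had differences between −0.002 and 0.12 and exact permutation p of 0.421 to 1. SENP8 was the steadiest gene at both ages by this measure, with 0.11 and 0.20.

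Among hens of the same age, no tendency of the 7 genes to rise and fall together was detected. Each hen was compared with the mean of its age in log2 CPM, which removes the age difference that chose the genes, and the deviations of 2 genes were correlated over the 10 hens. Over the 21 pairs of the 7 genes the mean Pearson r was −0.06, with 10 pairs above 0 and 11 below. All pairs of tested genes had a mean of 0.00 and 49.9% above 0. An r of 0.5 or more was found in 2 of the 21 pairs (9.52%), and in 10.6% of all pairs of tested genes. The highest were SENP8 with LRRN3 (r = 0.59, exact permutation p = 0.076, rho 0.61 with p = 0.106) and AKAP9 with RABEPK (r = 0.51, exact permutation p = 0.175, rho 0.62 with p = 0.0712). The lowest was LRRN3 with RABEPK (r = −0.66, exact permutation p = 0.0447, rho −0.47 with p = 0.211).

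None of the 21 pairs passed after adjustment, with a smallest adjusted p of 0.612 for r and 0.646 for rho, and 1 pair had an unadjusted p under 0.05. Leaving out the 2 hens farthest from the median of LRRN3, or of AKAP9 for its pair, gave r of −0.10 for LRRN3 with RABEPK, 0.49 for LRRN3 with SENP8 and 0.33 for AKAP9 with RABEPK. The negative relation of LRRN3 with RABEPK therefore rests on replicate 5 at 35 weeks and replicate 4 at 50 weeks, in which LRRN3 was lowest and RABEPK highest for the age. Without the 3 libraries that stood apart, and with the scaling of all 10 hens kept, r was −0.28 for LRRN3 with RABEPK, 0.23 for LRRN3 with SENP8 and 0.78 for AKAP9 with RABEPK, so these omissions moved the last pair in opposite directions. With the other 7 libraries scaled anew, the mean r was 0.05, with 11 of 21 pairs above 0 and 0 past an adjusted p of 0.05. A p that misses the threshold over 10 hens does not show that 2 genes vary independently.

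**Figure D3:**
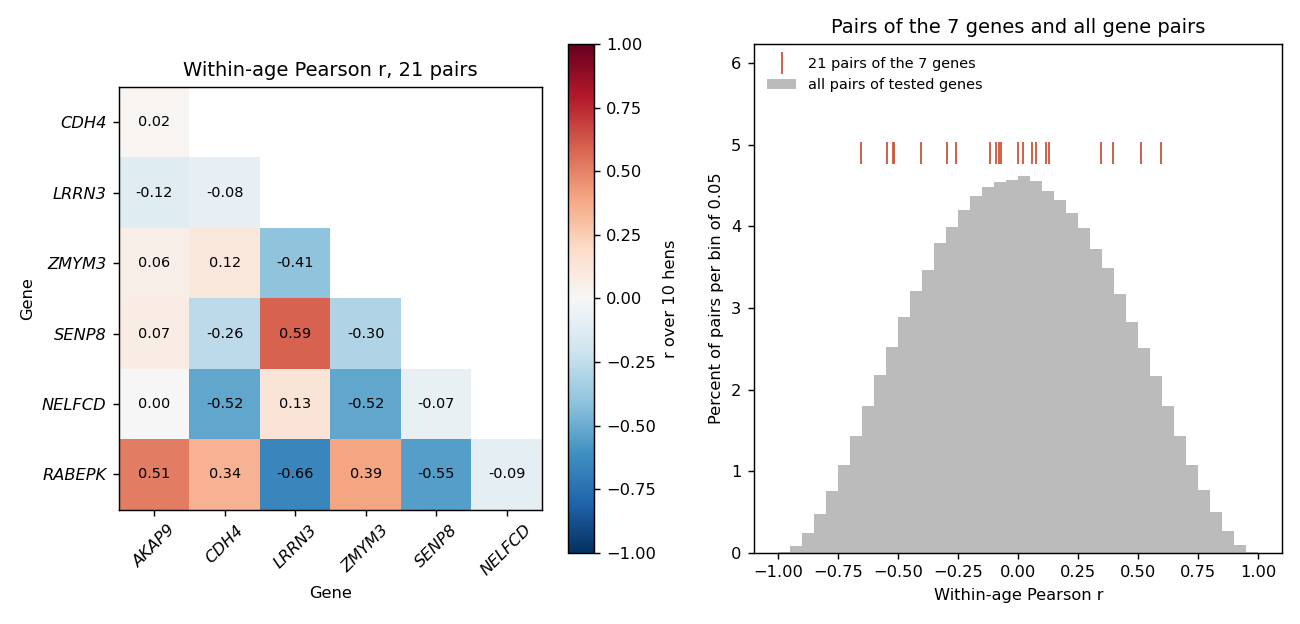
Left, within-age Pearson r over 10 hens for each of the 21 pairs of the 7 genes (color scale from −1 to 1); right, the distribution of r over all pairs of tested genes (gray bars, percent of pairs per bin of 0.05) with the 21 pairs marked in red. The 21 values run from −0.66 to 0.59 and lie on both sides of 0, within the range of all pairs.

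Hen by hen, different genes were high in different birds. Replicates 2 and 5 at 50 weeks lay below every 35-week hen for all 7 genes, replicates 1 and 3 for 6 and replicate 4 for 5. These counts use the age difference that chose the genes, and the share over all genes was not counted for single hens. Nothing is read from them. Replicate 2 at 50 weeks had the lowest AKAP9 and CDH4 of its age and the highest NELFCD. Replicate 3 at 50 weeks had the highest LRRN3, ZMYM3 and SENP8 and the lowest NELFCD. Replicate 4 at 50 weeks had the highest CDH4 and RABEPK and the lowest LRRN3 and SENP8. At 35 weeks replicate 5 had the highest ZMYM3 and RABEPK and the lowest LRRN3 and NELFCD, and replicate 2 had the highest CDH4 and LRRN3 and the lowest AKAP9 and RABEPK. No hen was high or low for all 7 within its age, and the nearest to it was replicate 5 at 50 weeks, below the mean of its age for 6.

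**Figure D4:**
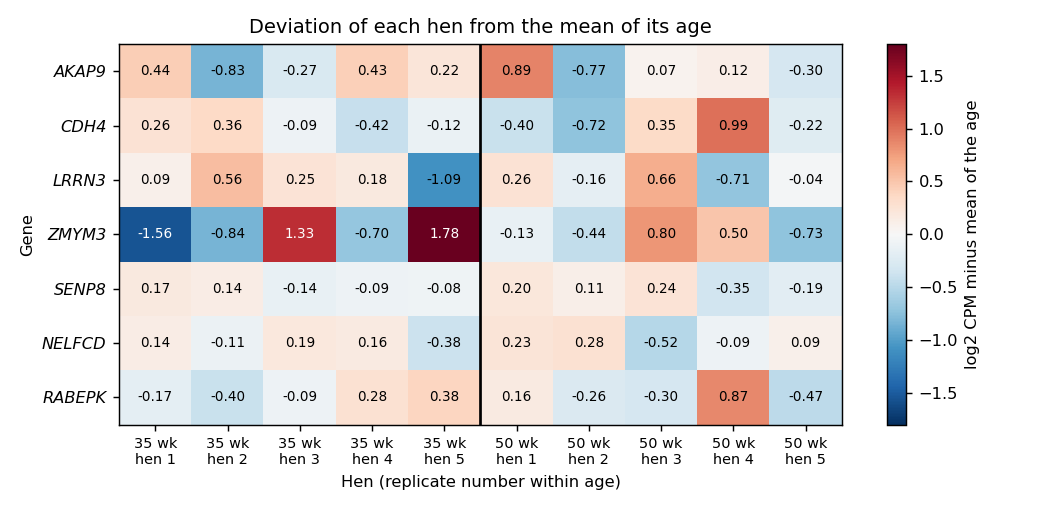
Deviation of each hen (columns, grouped by age) from the mean of its age in log2 CPM for each of the 7 genes (rows), red above and blue below the mean. ZMYM3 has the widest row, from −1.56 to 1.78 at 35 weeks, and SENP8 the narrowest, from −0.35 to 0.24 over both ages.

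Of the 84 relations with marker lists, 7 had an unadjusted p under 0.05 and 0 passed after adjustment. Among the 7 were LRRN3, RABEPK and SENP8 with the markers of ciliated epithelium, the lining cells that bear cilia. Of these markers 17 were in the table, with PIFO at 0, and their sum was 1036 to 1610 CPM at 35 weeks and 755 to 1471 CPM at 50 weeks. Only 4 had enough counts to be tested. Most of the ciliated sum was 1 gene, CCDC65, with means of 1067.5 CPM at 35 weeks and 738.2 CPM at 50 weeks. CCDC65 was named after its values were seen, and how far the relations below reflect this gene alone was not tested. Within ages r was 0.84 for LRRN3 (exact permutation p = 0.00361, rho 0.75 with p = 0.0256) and −0.84 for RABEPK (exact permutation p = 0.00875, rho −0.77 with p = 0.0185). Over the 84 relations the adjusted p was 0.245 for both r and 0.665 for both rho. Without the 2 hens farthest from the median of the marker sum r was 0.76 and −0.74, and without the 3 libraries that stood apart it was 0.77 for LRRN3 and −0.37 for RABEPK. SENP8 had an r of 0.74 with the same sum (exact permutation p = 0.0224, adjusted p = 0.438), and of 0.16 without the 3 libraries. LRRN3 with the leukocyte sum had an r of −0.60 (exact permutation p = 0.0269, adjusted p = 0.438), and of −0.49 without the 3 libraries. CDH4 with the endothelial sum had an r of −0.71 (exact permutation p = 0.0313, adjusted p = 0.438), and of −0.03 without the 3 libraries. The leukocyte sum was 260 to 309 CPM at 35 weeks and 204 to 585 CPM at 50 weeks, with CD3D, CD4, LCP1 and POU2AF1 of its 15 genes at 0. The endothelial sum was 622 to 1041 CPM at 35 weeks and 566 to 979.7 CPM at 50 weeks, with CLDN5 of its 10 genes in the table at 0. Only 3 of the leukocyte genes and 1 of the endothelial genes had enough counts to be tested. The part of these cells in the levels of the 7 genes was not tested.

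The genes whose within-age pattern was most like that of each of the 7, among all tested genes with a symbol, were SMARCA2 (r = 0.93) and the egg white gene RBP (0.89) for SENP8, TSPAN10 (0.93) and NIPA2 (0.92) for RABEPK, and RRNAD1 and BRPF3 (0.90 each) for LRRN3. They were MED22 (0.90) and TRMT10C (0.88) for NELFCD, RAD51C (0.89) and ZNF827 (0.87) for ZMYM3, SFI1 (0.89) and INPP5E (0.86) for CDH4, and CUTC (0.84) and RANBP1 (0.80) for AKAP9. These r, over 10 hens, are the highest among tested genes with a symbol and are given as a description. The highest of so many r over 10 hens is large also where genes are unrelated. Some rest on few counts, such as RAD51C with 1 to 22 per library and CUTC with 8 to 14. None of the 14 was one of the 7 genes, and none was named for more than 1 of them. RBP had a log2 fold change of −0.85 and SMARCA2 of −0.41, while the other 12 lay between −0.32 and 0.56.

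Genes that work with the 7, or belong to the same family, mostly had too few counts to be tested. Of 325 genes on the 7 lists, 24 were tested, 11 of them negative and 13 positive, with a median log2 fold change of 0.02 against 0.01 over all tested genes. None of the 24 passed an adjusted p of 0.05 in edgeR's quasi-likelihood test or in limma with sample weights. In edgeR's test, at an unadjusted p under 0.05, there were 0 lower and 1 higher. DESeq2 called none of the 24 either, but it gave an adjusted p to only 776 of the 1773 tested genes. A gene without an adjusted p cannot pass, and how many of the 24 had one was not counted. No partner gene passed under the 2 looser filters on low counts either, with 243 and 151 tested.

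For RABEPK, 7 of 52 listed genes were tested, 2 negative and 5 positive (median 0.17). RAB9A, the GTPase that RABEPK binds, had means of 1023 ± 99.5 CPM in younger and 1107 ± 258 CPM in older hens (0.12 on the log2 scale, SE 0.16), and was named after its values were seen. M6PR, a mannose 6-phosphate receptor carried by that route, averaged 98.4 ± 24.6 and 132 ± 29.5 CPM (0.42, SE 0.24), and NDE1, a dynein regulator, 421 ± 300 and 238 ± 92.1 CPM (−0.82, SE 0.45). For AKAP9, 5 of 52 were tested, 1 negative and 4 positive (median 0.37). The centrosome gene CEP350, the 1 gene with an unadjusted p under 0.05, averaged 280 ± 60.2 and 370 ± 60.9 CPM (0.41, SE 0.19, adjusted p = 0.473 in edgeR's quasi-likelihood test), and the phosphatase subunit gene PPP1CA 118 ± 29.3 and 153 ± 15.3 CPM (0.37, SE 0.21).

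For NELFCD, 5 of 52 were tested, 4 negative and 1 positive (median −0.19), and none of NELFA, NELFB and NELFE, the other subunits of its complex, was tested. POLR2B, the second largest subunit of RNA polymerase II, had a log2 fold change of −0.35 (SE 0.29) and HEXIM1, an inhibitor of the elongation kinase P-TEFb, of −0.30 (SE 0.25). For CDH4, 4 of 45 were tested, 1 negative and 3 positive (median 0.08), with CTNNB1, the beta-catenin that binds cadherin tails, at 0.24 (SE 0.35) and the phosphatase gene PTPN1 at −0.41 (SE 0.40). For LRRN3, 2 of 43 were tested, both negative, the related LRRN2 at −0.19 (SE 0.18, 3219 ± 884 and 2828 ± 481 CPM) and LINGO1 at −0.71 (SE 0.51). For SENP8, 1 of 45 was tested, the cullin gene CUL4B at −0.52 (SE 0.33). For ZMYM3, 0 of 37 had enough counts.

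**Figure D5:**
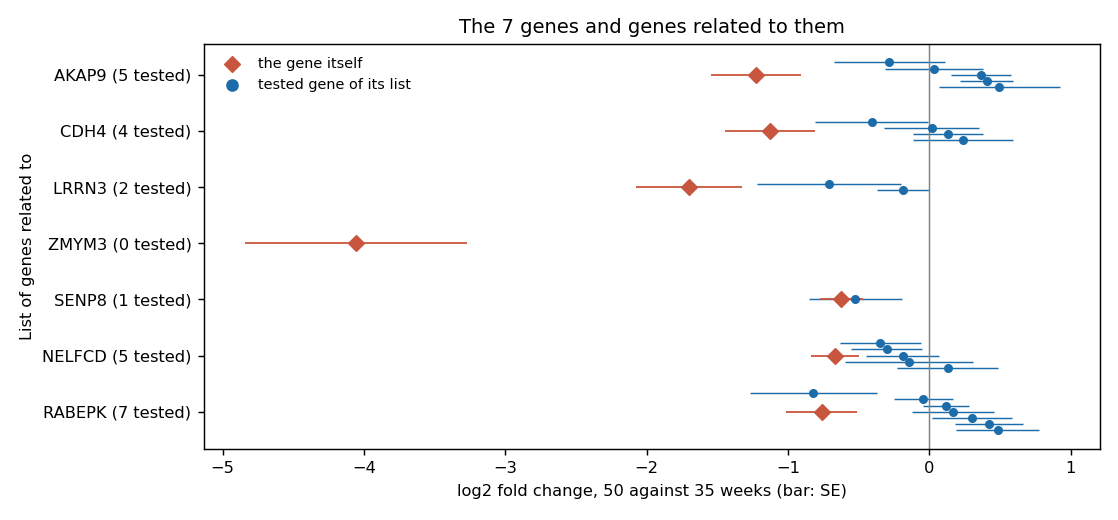
log2 fold change of 50 against 35 weeks (horizontal axis, bars are SE) of each of the 7 genes (red diamonds) and of the tested genes on its list (blue circles), with the number tested beside each name. Values of the 24 tested partner genes run from −0.82 to 0.49, on both sides of 0.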

How the data were processed

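Total RNA from whole magnum was extracted with TRIzol, kept at an RNA integrity number above 7 and made into strand-marking libraries, per the labels' protocols. Reads were handled with Trimmomatic, HISAT2, Cufflinks and DESeq2 on GRCg7b, according to the processing notes of the submitters. No source used here names the counter, its strand setting or any version. For each of 10 libraries the authors deposited unnormalised counts by Ensembl gene ID. Their deposited table of the comparison holds log2 fold changes with SEs, p-values with adjusted p-values, a mean normalised signal and a score (the Wald statistic), per the file headers; the last 2 were not used.

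The count model was that of edgeR 4.0.16, run under R 4.3.3 (low counts filtered by filterByExpr at a minimum of 10, TMM, robust glmQLFit and glmQLFTest, age as the one term, Benjamini-Hochberg adjustment over all 1773 tested genes). CPM are scaled by the TMM library size, marker sums by library totals, and SE is the fold change over the root of F. The pipeline was tested on simulated data. Alternatives used DESeq2 1.42.0 and limma 3.58.1. Correlations and spreads were tested by exact permutation, of 14400 orders within ages and of 252 assignments (Python 3.11.15, numpy 2.4.6, scipy 1.17.1). Positions come from a RefSeq table of GRCg7b, matched by gene ID or symbol for all 7 genes. Libraries of 1 age differed by more than sampling noise (chi-square per degree of freedom of at least 2.66). The p-values of edgeR set an age difference against the spread between these hens. The permutation p-values rank an observed value among reorderings of the values of these hens.

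The 7 genes, lists, alternatives and tests were chosen with earlier results of these data known. Besides the 7, the text names the 2 tested genes of smallest unadjusted p per list, genes overlapping or within 1 kb, and the 2 most alike in within-age pattern; others are said to be named after their values were seen. No sequences are shown.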

Additional observations from a re-analysis of the deposited data

Results flagged for a closer look

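In groups of 5 hens, 1 hen was counted as standing out where its gap to the nearest other exceeded 0.71 of the group's range, which chance does in about 1 in 20 groups. Of 92 groups of named genes and marker sums 8 did so, and 0 of the 14 groups of the 7 genes. They were CTNNB1 in replicate 4 at 35 weeks (24.2 CPM), LRRN2 in replicate 5 at 35 weeks (4769 CPM), M6PR in replicate 2 at 50 weeks (184 CPM) and SFI1 in replicate 4 at 50 weeks (342 CPM). Among marker sums they were fibroblast (902 CPM, mostly COL6A2) and adipocyte and mesothelium (85.2 CPM) in replicate 4 at 50 weeks. The erythrocyte sum in replicate 1 at 50 weeks (39.0 CPM) and the nerve and glia sum in replicate 2 at 35 weeks (8.52 CPM) also stood out. The nerve and glia sum there lay below the 12.8 CPM that 3 counts give in that library. The other hens of its age were at 0, so any count at all would stand out. The rate of 1 in 20 need not hold for sums of so few counts. SFI1 is the gene most like CDH4 in within-age pattern, and replicate 4 at 50 weeks is also the hen with the highest CDH4 of its age. Because SFI1 was named for this likeness, a shared high hen goes with the choice, and nothing is read from it.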

How the results depend on the processing

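All 7 genes had negative fold changes in all 18 alternatives, a direction that their choice fixes. Without the 3 libraries that stood apart the log2 fold change was −4.77 for ZMYM3, −1.31 for AKAP9 and −0.63 for NELFCD. For ZMYM3 these libraries hold the 2 lowest hens at 35 weeks and a high hen at 50 weeks. Leaving them out fixes a larger difference of ZMYM3 in advance. Genes past the threshold numbered 1 in the fit on all hens, 36 without a filter on low counts, 40 with 1 CPM in at least 5 libraries, 17 with DESeq2, 12 with limma, 2 with the replicate block and 42 without the 3 libraries that stood apart, and 1 to 12 on leaving out 1 hen. Of the 7 genes, 0 passed on all hens, and 4, 5, 4, 3, 1 and 3 in those settings in the same order, and 0 to 2 on leaving out 1 hen; the 12 genes, with CDH4 and RABEPK among them, came without replicate 4 at 50 weeks. The cause was not tested. Numbers shared between ages did not pair the hens (correlations of −0.12 to 0.098), so the block has no basis in the design; 2 of 5 hens at 35 weeks were most like the 50-week hen of their own number. The counts of called partner genes, pairs and spread differences were 0 in every setting run. The mean r of the 21 pairs ran from −0.10 to 0.05 over the Pearson settings and was 0.01 with Spearman's rho. At 3 to 13 counts per library, ZMYM3 and LRRN3 at 50 weeks are limited by depth.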
